A study of Rattus norvegicus with 36 samples.

Results

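The circadian clock genes described here are Per1, Per2, Per3, Cry1, Cry2, Dbp, Tef, Nr1d1, Nr1d2 and Bhlhe40, 10 genes of the 14217 named on the array. They were taken by symbol, as every probe set that the array annotation gives to 1 of these genes alone, which found 17 probe sets of the 31042 tested. Their values were read in livers of 36 male Harlan Sprague Dawley rats, 7 weeks old at the start, in 6 groups of 6. The groups received corn oil alone (vehicle) or the flame retardant HCDBCO (hexachlorocyclopentadienyl-dibromocyclooctane) in corn oil. The 3 lower doses were 0.05 mg/kg, 0.54 mg/kg and 5.41 mg/kg, and the 2 higher ones 54.1 mg/kg and 541 mg/kg. Each was given by gavage on 5 days in a row, at a volume of 5 ml/kg. Part of the left liver lobe was taken 1 day after the last dose. All groups shared the diet, the vehicle and the gavage. The labels give no hour of necropsy and no animal numbers, so no clock time can be set beside a sample, and the p-values rest on the spread among samples, which may be partly technical.

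The mammalian clock is a feedback loop of transcription. CLOCK and BMAL1 bind E-box sequences and switch on the Per and Cry genes, whose proteins then repress CLOCK and BMAL1; the same E-boxes drive Nr1d1 and Nr1d2, which encode the REV-ERB repressors of Bmal1, and Dbp and Tef, which act through D-box sequences. In liver this loop sets daily rhythms of lipid, bile acid, glucose and drug metabolism, and its genes peak at different times of day, so a single sampling time catches each at its own point of its cycle.

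Promoter windows are shown for the 3 genes on which most of the values below turn. RefSeq windows of 300 bases, from 250 before to 50 after the annotated start (assembly GRCr8), were found for 9 of the 10 genes, 10 windows in all because Nr1d1 has 2; Cry1 has none in the table. Capitals mark an E-box (CACGTG) in Bhlhe40 and a D-box (TTATGTAA) in Per2; the Nr1d2 window holds none of the motifs searched, and each window is written 5′ to 3′ on the strand of the gene.
Bhlhe40 chr4:143174200-143174499 (plus strand): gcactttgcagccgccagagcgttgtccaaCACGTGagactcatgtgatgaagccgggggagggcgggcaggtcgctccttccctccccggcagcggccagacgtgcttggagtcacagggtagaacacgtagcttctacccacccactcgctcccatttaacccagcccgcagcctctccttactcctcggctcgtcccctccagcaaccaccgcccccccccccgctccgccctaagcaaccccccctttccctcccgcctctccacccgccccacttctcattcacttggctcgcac
Per2 chr9:99496944-99497243 (minus strand): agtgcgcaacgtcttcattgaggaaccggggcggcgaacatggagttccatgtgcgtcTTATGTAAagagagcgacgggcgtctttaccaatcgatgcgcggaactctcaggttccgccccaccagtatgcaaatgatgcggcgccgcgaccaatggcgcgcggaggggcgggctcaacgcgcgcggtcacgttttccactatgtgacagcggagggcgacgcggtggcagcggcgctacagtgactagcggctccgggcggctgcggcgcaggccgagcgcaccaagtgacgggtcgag
Nr1d2 chr15:9954784-9955083 (plus strand): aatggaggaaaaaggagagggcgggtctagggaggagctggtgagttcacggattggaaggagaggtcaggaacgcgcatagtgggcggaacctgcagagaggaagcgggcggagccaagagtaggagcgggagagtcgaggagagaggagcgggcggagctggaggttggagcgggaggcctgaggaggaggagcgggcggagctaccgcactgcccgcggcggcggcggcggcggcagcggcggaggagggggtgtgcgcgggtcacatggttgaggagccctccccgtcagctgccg

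The E-box of Bhlhe40 begins 220 bases before the start and the D-box of Per2 192 bases before it. CACGTG also occurred in the windows of Tef, 198 bases before the start, and of Nr1d1, 191 bases before the start at chr10:84229405-84229704 on the minus strand. It was thus in 3 of the 10 windows, and in 6.42% of all 33469 windows of this length. The D-box, searched as TTATGTAA or TTACGTAA, was in 1 of the 10 and in 1.01% of all. The core of the element bound by REV-ERB and ROR receptors, TAGGTCA, was in 0 of the 10 and in 2.63% of all. Both strands were searched, and a match describes the letters alone. Variants of the E-box other than CACGTG were not searched, so a window without a mark may still hold one.

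Expression values are the authors' RMA values on a log2 scale, on which 1 unit is a factor of 2, and levels of different probe sets cannot be set against each other. The 36 arrays correlated with each other at 0.991 to 0.997, and no pair held identical values. The array of 54.1 mg/kg replicate 5 stood apart, with a lower quartile of 3.80 where the others had 3.62 to 3.72, and an upper quartile of 6.95 where the others had at least 7.03. Hepatocyte markers were at the top of the scale in every group (Alb at the 100th percentile of probe sets by level), with 5 of 6 listed markers measured and group medians of their mean level from 13.91 to 13.98. No measured marker, of hepatocytes or of any other cell type, passed the test at 54.1 or 541 mg/kg. With 0.0741% and 0.155% of all probe sets called there, this says little about cell make-up. For Kupffer cells 2 of 4 listed markers were measured, for B cells 1 of 3 and for erythroid cells 2 of 3. Median differences of the marker lists at 541 mg/kg ran from -0.20 (endothelial) to 0.15 (bile duct). In bulk liver, fewer cells of a type and less RNA per cell cannot be told apart.

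No clock gene passed the test at any dose. Each dose was set against vehicle with limma at a false discovery rate (FDR) of 5% over all probe sets, and the contrasts share the 6 vehicle samples. At 541 mg/kg 0 of the 10 genes were called, where 0.155% of all probe sets were called, and at 54.1 mg/kg 0 of 10, where the background was 0.0741%. At 5.41, 0.54 and 0.05 mg/kg 0 of 10 were called, and so were 0% of all probe sets. A further 4 limma contrasts called 0 of 10 as well. These were all doses against vehicle (0% of all probe sets called), the 2 highest against the 3 lowest doses (0.287%), a linear trend over the dose order (0.715%) and an F-test across the 6 groups (0.0999%). With a background this low, a count of 0 in 10 genes says little about the clock genes as a set.

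The clock probe sets with a low unadjusted p were mostly of Nr1d2, Cry2 and Bhlhe40. The share of all probe sets is given beside each count, and no count was tested against it. Of the 17 probe sets, 3 had an unadjusted limma p under 0.05 at 54.1 mg/kg (9.2% of all probe sets did) and 1 at 541 mg/kg (9.07%). The count was 1 at 0.54 mg/kg (4.18%), 0 at 0.05 mg/kg (3.02%) and 0 at 5.41 mg/kg (4.83%). It was 4 for the 2 highest against the 3 lowest doses (8.61%), 4 for the trend (12%), 1 for all doses against vehicle (6.84%) and 2 in the F-test (5.99%). The share among the 17 was thus above that of all probe sets at 54.1 and 0.54 mg/kg. It was also above it for the 2 highest against the 3 lowest doses, the trend and the F-test, and below it in the other contrasts. Probe sets of a gene are not independent. In no clock probe set did the range of a dose group lie clear of the range of vehicle. The same count was not made over all probe sets, so it describes these 17 alone. By the brightest probe set of each gene, 6 genes were higher and 4 lower at 54.1 mg/kg, with a median difference of 0.03, and 4 higher and 6 lower at 541 mg/kg, with a median of -0.02; the median of all probe sets was 0.01 at both doses.

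**Figure D1:**
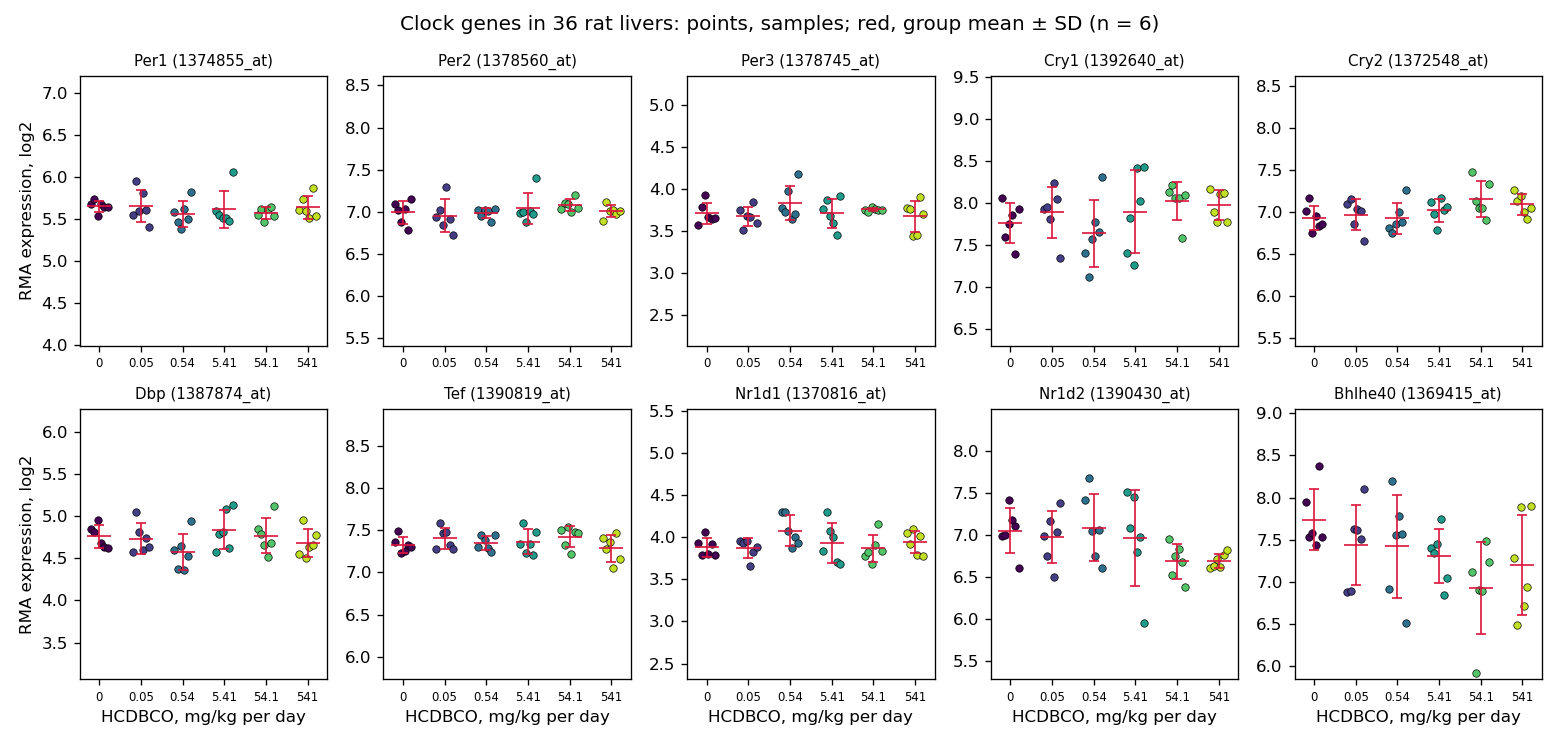
Expression (RMA, log2) of the brightest probe set of each of the 10 clock genes against the HCDBCO dose in mg/kg per day, with 1 point per liver sample and red bars for the group mean ± SD (n = 6); every panel spans the same number of log2 units. Bhlhe40, Nr1d2 and Cry1 scatter widely within groups, and Nr1d2 is tightest at 541 mg/kg, between 6.61 and 6.82.

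The genes differed in how much they varied between rats of 1 group. Bhlhe40 had a within-group standard deviation (SD) of 0.50, at the 99.2 percentile of all probe sets, where the median probe set had 0.14. The SD was 0.34 for Nr1d2, at the 97.6 percentile, and 0.32 for Cry1, at the 97.3 percentile. That of Tef was 0.13, at the 33.9 percentile, and that of the brightest probe set of Per2 was 0.13, at the 42.1 percentile. Dim probe sets set a limit for Per3, Dbp and Nr1d1, whose mean levels were 3.73, 4.73 and 3.93 where the median probe set lay at 5.11. These genes did not reach log2 5 in 6 or more samples; the other 7 genes, and 11 of the 17 probe sets, did.

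Bhlhe40, which encodes a repressor that competes for E-boxes (DEC1), had the largest differences of the 10 genes at both high doses. Its level in vehicle ran from 7.44 through a median of 7.56 to 8.38. At 54.1 mg/kg it ran from 5.92 through 7.01 to 7.49, and at 541 mg/kg from 6.49 through 7.11 to 7.90. All 6 samples at 54.1 mg/kg lay below the vehicle mean of 7.74 ± 0.36 (SD, n = 6), and only the highest of them, replicate 5, reached into the vehicle range. At 541 mg/kg 4 of 6 lay below that mean and the groups overlapped. The difference at 54.1 mg/kg was -0.81 ± 0.27 (limma SE), 0.571-fold with a 95% interval of 0.393 to 0.828, with an adjusted p of 0.299 and an unadjusted p of 0.00426. At 541 mg/kg it was -0.53 ± 0.27, 0.690-fold (interval 0.476 to 1.00), with an adjusted limma p of 0.554. Neither passed.

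The lower doses of HCDBCO held Bhlhe40 levels in between. The group means were 7.44 ± 0.48 at 0.05 mg/kg, 7.42 ± 0.61 at 0.54 mg/kg and 7.31 ± 0.32 at 5.41 mg/kg (SD, n = 6 each), all below vehicle, with ranges that overlapped it. The trend over the dose order was -0.12 ± 0.04 per step, with an adjusted limma p of 0.216. Without replicate 5 the difference at 54.1 mg/kg was -0.92 (adjusted p 0.226), and without replicate 2, the lowest sample, it was -0.61 (adjusted p 0.516, limma). Its size moved with single livers, while its sign held in every fit that left out 1 sample.

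Nr1d2, which encodes REV-ERB beta, had lower values at both high doses by the 2 of its 3 probe sets that are bright, and none of the differences from vehicle passed. The brightest probe set ran from 6.61 through a median of 7.05 to 7.42 in vehicle. It ran from 6.39 through 6.71 to 6.95 at 54.1 mg/kg and from 6.61 through 6.67 to 6.82 at 541 mg/kg. In each high dose group all 6 samples lay below the vehicle mean of 7.05 ± 0.27 (SD, n = 6), and both groups overlapped the vehicle range. The differences were -0.36 ± 0.18 at both 54.1 and 541 mg/kg, 0.779-fold and 0.782-fold, with adjusted limma p of 0.559 and 0.573.

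The second probe set of Nr1d2 by brightness gave similar values. It ran from 6.05 through 6.42 to 6.81 in vehicle, from 5.62 through 5.96 to 6.27 at 54.1 mg/kg and from 5.60 through 5.89 to 6.31 at 541 mg/kg. The differences were -0.47 ± 0.20 (adjusted p 0.453) and -0.49 ± 0.20 (adjusted p 0.410, limma). The third is dim, with a mean of 3.09, and read -0.14 and 0.03. The bright pair followed each other across samples (r of 0.91 after removing group means, n = 36), and they are not separate evidence.

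Set against the 3 lowest doses, which needs no vehicle sample, the 2 highest doses differed in Nr1d2 by -0.32 ± 0.12 (interval -0.56 to -0.08, adjusted p 0.375) by the brightest probe set and by -0.40 ± 0.13 (interval -0.67 to -0.14, adjusted p 0.252) by the second, in limma. The trend of the second probe set was -0.11 per dose step with an adjusted p of 0.128. A single liver bore on this contrast: 5.41 mg/kg replicate 6 had 5.96 by the brightest probe set, where the next lowest of its group had 6.79. Without it the second probe set differed by -0.48 ± 0.10 and passed (adjusted limma p 0.0275, with 0.283% of all probe sets called), and the brightest differed by -0.39 ± 0.10 and did not (adjusted p 0.0996). It was the 1 pass among 30 fits that each left out 1 dosed sample, in which the adjusted p of the second probe set ran from 0.0275 to 0.407.

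Nr1d1, which encodes REV-ERB alpha and is the paralogue with the wider daily swing in liver, was dim at this sampling. Its level ran from 3.79 through 3.86 to 4.06 in vehicle and from 3.78 through 3.96 to 4.10 at 541 mg/kg, with full overlap. The differences were -0.01 ± 0.09 at 54.1 mg/kg and 0.06 ± 0.09 at 541 mg/kg, where the 95% interval was -0.13 to 0.25 (adjusted limma p 0.981 and 0.901).

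**Figure D2:**
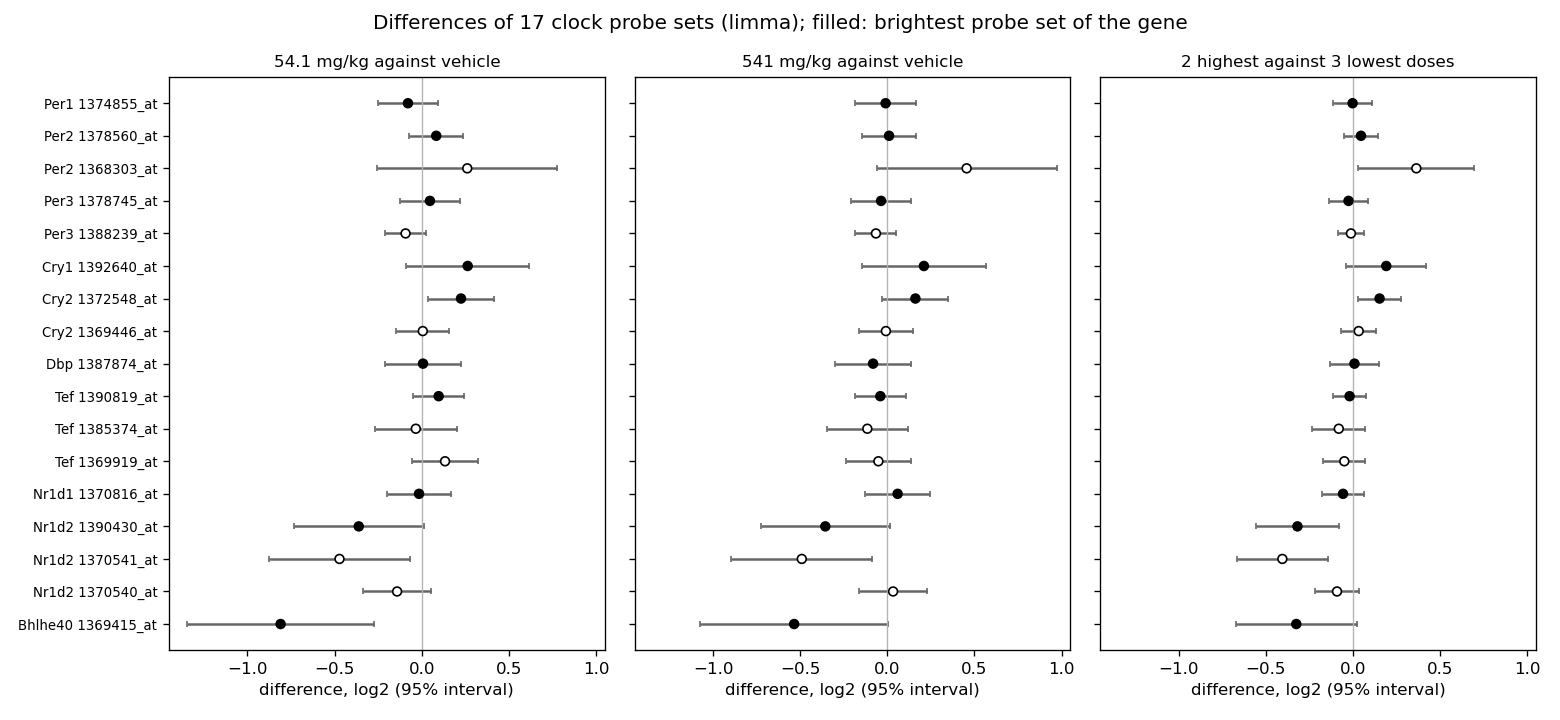
Differences in log2 expression with 95% limma intervals for the 17 clock probe sets at 54.1 mg/kg and 541 mg/kg against vehicle and for the 2 highest against the 3 lowest doses; filled points are the brightest probe set of a gene. Bhlhe40 at 54.1 mg/kg lies farthest from 0, at -0.81, and no probe set passed the FDR of 5%.

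The period genes encode the PER proteins, which bind CRY proteins and hold back CLOCK and BMAL1. Per1 ran from 5.53 through 5.66 to 5.73 in vehicle and from 5.51 through 5.60 to 5.87 at 541 mg/kg. Its differences were -0.08 at 54.1 mg/kg, where all 6 samples lay below the vehicle mean, and -0.01 at 541 mg/kg, with an interval of -0.18 to 0.16. Per3 was dim by both of its probe sets. The brighter read 0.05 and -0.04 at these doses, and the dimmer -0.09 and -0.07. The lowest adjusted limma p of Per1 or Per3 at these doses was 0.658.

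The 2 probe sets of Per2 gave values of different size, and neither passed. The brightest ran from 6.78 through 7.03 to 7.16 in vehicle and from 6.89 through 7.01 to 7.11 at 541 mg/kg, a difference of 0.01 (interval -0.14 to 0.17, adjusted limma p 0.982). The other ran from 6.01 through 6.32 to 6.77 in vehicle and from 6.26 through 6.93 to 7.10 at 541 mg/kg. There 5 of 6 samples lay above the vehicle mean, and the difference was 0.46 ± 0.25 (interval -0.06 to 0.97, adjusted p 0.611, limma). The 2 highest against the 3 lowest doses gave 0.05 and 0.36 (adjusted p 0.854 and 0.527). The second probe set varied more than 99.1% of all probe sets within groups, and across samples the pair followed each other at r of 0.63. Which of them follows the Per2 transcript more closely was not tested.

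The cryptochromes Cry1 and Cry2 are the partners of the PER proteins and the stronger repressors of the loop. Cry1 ran from 7.39 through 7.80 to 8.06 in vehicle, from 7.59 through 8.08 to 8.22 at 54.1 mg/kg and from 7.78 through 8.00 to 8.17 at 541 mg/kg. All 6 samples at 541 mg/kg and 5 of 6 at 54.1 mg/kg lay above the vehicle mean, with overlapping ranges. The differences were 0.26 ± 0.17 (adjusted p 0.680) and 0.21 ± 0.17 (adjusted p 0.769, limma). The exception was replicate 5, the array that stood apart, and without it the difference at 54.1 mg/kg was 0.35 (adjusted p 0.628).

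The brightest probe set of Cry2 ran from 6.75 through 6.91 to 7.17 in vehicle, from 6.91 through 7.09 to 7.47 at 54.1 mg/kg and from 6.92 through 7.08 to 7.26 at 541 mg/kg. The differences were 0.23 ± 0.09 (unadjusted p 0.0206, adjusted p 0.440) and 0.16 ± 0.09 (adjusted p 0.629, limma), and the trend was 0.04 per dose step (adjusted p 0.236). At each of these doses 5 of 6 samples lay above the vehicle mean. The other probe set read 0.01 and -0.01, with an interval of -0.16 to 0.15 at 541 mg/kg. The difference between the probe sets was not tested.

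Dbp and Tef encode PAR-domain basic leucine zipper factors, through which the clock reaches drug-metabolising and lipid genes. Dbp ran from 4.62 through 4.75 to 4.96 in vehicle and from 4.50 through 4.65 to 4.96 at 541 mg/kg, so that the groups covered nearly the same range. The difference was 0.01 ± 0.11 at 54.1 mg/kg and -0.08 ± 0.11 at 541 mg/kg, with an interval of -0.30 to 0.13 and an adjusted limma p of 0.876. Its lowest group mean, 4.57 ± 0.22 (SD, n = 6), was at 0.54 mg/kg. Tef ran from 7.23 through 7.31 to 7.49 in vehicle and from 7.05 through 7.32 to 7.47 at 541 mg/kg. Its brightest probe set read 0.10 at 54.1 mg/kg and -0.04 at 541 mg/kg, the latter with an interval of -0.19 to 0.11. The others read -0.03 and 0.13 at 54.1 mg/kg, and -0.11 and -0.05 at 541 mg/kg, so their signs did not match at the lower of these doses.

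A shift in clock phase moves genes that peak at opposite times in opposite directions, at most sampling times. Of the genes that peak from the light phase to dusk, 11 of 12 listed were measured: Nr1d1, Nr1d2, Dbp, Tef, Hlf, Per1, Per2, Per3, Bhlhe40, Bhlhe41 and Usp2. At 541 mg/kg 4 were higher and 7 lower, with a median of -0.04, and at 54.1 mg/kg 6 were higher and 5 lower, with a median of 0.01. Of those that peak from late dark to early light, Bmal1, Clock, Npas2, Nfil3 and Cry1 were all measured. At both of these doses 1 of the 5, Cry1, was higher and 4 were lower, with a median of -0.09 each time. No gene of either class passed the FDR at either dose in limma, where 2 of 21 light-to-dusk and 2 of 8 late-dark probe sets had an unadjusted p under 0.05 at 54.1 mg/kg (9.2% of all probe sets did), and 1 and 0 at 541 mg/kg (9.07%). The late-dark pair at 54.1 mg/kg ran opposite ways, with Npas2 at -0.20 and a probe set of Clock at 0.24. That probe set is not the brightest of Clock, which read -0.06 at this dose, and the remaining ones read -0.08 and -0.14. The class medians lay on opposite sides of 0 at 54.1 mg/kg and on the same side at 541 mg/kg. At 54.1 mg/kg, however, the light-to-dusk median of 0.008 was below the 0.010 of all probe sets. That class also joins Nr1d2 with Per1 and Per2, whose r with Nr1d2 was -0.63 and -0.71 after removing group means (n = 36). At 54.1 and 541 mg/kg Nr1d2 read -0.36 both times, Per1 -0.08 and -0.01, and the brightest probe set of Per2 0.08 and 0.01. Whether such differences offset each other in the class median was not tested. Members of each class went both ways, so the medians do not settle whether phase differed.

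Of the genes that peak late in the dark phase, Cry1 is described above. Bmal1, the partner of CLOCK and the main target of REV-ERB repression, ran from 7.10 through 7.40 to 7.51 in vehicle and from 7.08 through 7.29 to 7.33 at 541 mg/kg. Its differences were -0.12 at 54.1 mg/kg and -0.09 at 541 mg/kg (interval -0.25 to 0.06, adjusted limma p 0.772). Npas2, a stand-in for CLOCK, read -0.20 and -0.12, and Nfil3, a repressor at D-boxes, -0.09 and -0.00. The mean of Bmal1 at the high doses thus lay below that of vehicle, as that of Nr1d2 did, and neither passed. For Bmal1 3 of 6 samples at 54.1 mg/kg and 6 of 6 at 541 mg/kg lay below the vehicle mean. For Nr1d2 it was 6 of 6 at both.

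The same comparison can be made in each liver. For each liver, the deviations of the light-to-dusk genes from their means over all 36 samples were averaged, and the average of the late-dark genes was subtracted. This value ran from -0.11 through a median of 0.02 to 0.18 in vehicle. It ran from -0.18 through -0.08 to 0.20 at 54.1 mg/kg and from -0.25 through -0.03 to 0.10 at 541 mg/kg. At 0.05, 0.54 and 5.41 mg/kg the medians were 0.02, 0.07 and 0.06. All 6 groups overlapped, and no test was made on this summary.

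Other genes of the clock did not pass either. Of 18 listed, 14 were measured, and limma called 0 of them at 541 mg/kg and 0 at 54.1 mg/kg; 0.155% and 0.0741% of all probe sets were called. At an unadjusted p under 0.05 there were 1 and 3 of their 31 probe sets, where the shares of all probe sets were 9.07% and 9.2%. The 4 with the smallest p at 541 mg/kg were Cipc, an inhibitor of CLOCK, at -0.24 (adjusted p 0.464), Clock itself at -0.12 (0.630) by its brightest probe set, Timeless at 0.23 (0.666) and the PER kinase Csnk1e at -0.12 (0.730). Of the other 3 probe sets of Clock, 2 read -0.07 and -0.17 at that dose and 1 read 0.19 (adjusted p 0.620), so their signs differed. The median of the 14 was -0.03, where all probe sets had 0.01.

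Among 14 genes that the liver clock is known to drive, all measured, 1 fell at 541 mg/kg and 13 did not pass, where 0.155% of all probe sets were called. At 54.1 mg/kg 0 of 14 passed in limma (0.0741% of all probe sets). An unadjusted limma p under 0.05 held for 8 of their 23 probe sets at each of these doses. Over all probe sets the share was 9.2% at 54.1 mg/kg and 9.07% at 541 mg/kg. Klf9, a Krüppel-like repressor that also answers to glucocorticoids and thyroid hormone, fell by 0.76 ± 0.13 (adjusted limma p 0.00356). It ran from 9.73 through 10.27 to 10.52 in vehicle and from 9.28 through 9.42 to 9.78 at 541 mg/kg, with a narrow overlap. At 54.1 mg/kg it read -0.61 (adjusted p 0.0598). Its second probe set read -0.66 (adjusted p 0.153) at 54.1 mg/kg and -0.74 (adjusted p 0.0636) at 541 mg/kg, clear of the vehicle range at both, and its dimmest -0.15 at the higher dose. Its trend was -0.13 per dose step (adjusted p 0.00179). Por, the reductase that feeds electrons to cytochromes P450, rose over the dose order by 0.08 per step (adjusted p 0.0403), and read 0.43 at 541 mg/kg (adjusted p 0.129). Its other probe set had a trend of 0.04 (adjusted p 0.397). Nampt, which makes NAD, read -0.48 (adjusted p 0.277), and Cyp7a1, which makes bile acids from cholesterol, 1.09 (adjusted p 0.382). The list's median was -0.01.

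Glucocorticoids reset the liver clock and act on Per1 directly, and feeding sets its phase, so both lists are given beside the clock genes. Of 8 listed glucocorticoid responsive genes 7 were measured, and limma called 0 of 7 at 54.1 and 541 mg/kg, with 5 and 2 of their 9 probe sets at an unadjusted p under 0.05, where the shares of all probe sets were 9.2% and 9.07%. All 7 were lower at both doses, with medians of -0.36 and -0.27. The number lower was also 7 at 0.05 mg/kg, 6 at 0.54 mg/kg and 4 at 5.41 mg/kg. The medians there were -0.06, -0.19 and -0.06, and all these contrasts share the vehicle samples. At 541 mg/kg Sgk1 read -1.25 (adjusted p 0.229), Tat -0.47 (0.510), Tsc22d3 -0.18 (0.748) and Dusp1 -0.34 (0.759). Of the rest, Pck1 read -0.27, Fkbp5 -0.08 by its brightest probe set and -0.23 by the other, and Hsd11b1 -0.002, so the sizes differed widely. Of 8 feeding and fasting genes 6 were measured and 0 were called at either dose. For both lists the background of calls was 0.0741% of all probe sets at 54.1 mg/kg and 0.155% at 541 mg/kg. In the feeding and fasting list 1 of 9 probe sets had an unadjusted p under 0.05 at each dose. This is close to the 9.2% and 9.07% of all probe sets. At 541 mg/kg Angptl4 read -0.58, Fasn 0.23, Acaca 0.13 and Fgf21 -0.93, with 3 genes of the list higher and 3 lower. Their part in the values of the clock genes was not tested.

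Since the largest spread lay between livers of the same group, the members were set against each other after removing group means, over 36 samples. Dbp was the planned reference, and its 23 relations with listed clock genes gave 0 with an adjusted permutation p under 0.05, and 8 with an unadjusted p under 0.05. The highest r was 0.42 with Cry1 (p 0.0298, adjusted p 0.143), with a rho of 0.24 (p 0.202, adjusted p 0.402) and an r of 0.34 without the 2 samples farthest from the Dbp median. The lowest was -0.39 with Nr1d2 (p 0.0430, adjusted p 0.143), with a rho of -0.27 (p 0.154, adjusted p 0.402) and an r of -0.29 without those samples. Each p comes from 100000 permutations within groups.

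All 45 pairs of the 10 genes were added as a family after the data were seen, and 8 had an adjusted permutation p under 0.05, 4 with a positive and 4 with a negative r. Nr1d2 stood opposite to 3 repressors of the loop. Its r with Cry1 was -0.76 (p 2e-05, adjusted p 0.0009), with a rho of -0.71 (p 3e-05, adjusted p 0.00135) and an r of -0.71 without the 2 samples farthest from the Cry1 median. With Per2 r was -0.71 (p 0.00011, adjusted p 0.00247), rho -0.62 (p 0.00027, adjusted p 0.00607) and r without the 2 farthest -0.53. With Per1 r was -0.63 (p 0.00175, adjusted p 0.0197), rho -0.45 (p 0.0112, adjusted p 0.0719) and r without the 2 farthest -0.46. The rank version of the last pair did not pass.

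The 5 remaining pairs did not hold Nr1d2. Per1 and Per2 had an r of 0.64 (permutation p 0.00252, adjusted p 0.0227) and a rho of 0.58 (p 0.00075, adjusted p 0.0112). Cry1 and Cry2 had an r of 0.57 (p 0.00045, adjusted p 0.00675) and a rho of 0.50 (p 0.00271, adjusted p 0.0244). These paralogue pairs passed by both measures. Per2 and Cry1 had an r of 0.50 (p 0.0054, adjusted p 0.0347) and a rho of 0.40 (p 0.0216, adjusted p 0.115). Per1 and Tef had an r of 0.49 (p 0.00725, adjusted p 0.0408) and a rho of 0.46 (p 0.0101, adjusted p 0.0719). Cry1 and Bhlhe40 had an r of -0.46 (p 0.00467, adjusted p 0.0347) and a rho of -0.37 (p 0.0351, adjusted p 0.144). By rank these 3 pairs did not pass. Without the 2 samples farthest from the median of the first gene, r in the order given was 0.51, 0.44, 0.37, 0.41 and -0.39. Cry2 and Nr1d2 passed by rank alone, with a rho of -0.53 (adjusted p 0.0225) and an r of -0.43 (adjusted p 0.0537). The paralogues Nr1d1 and Nr1d2 had an r of 0.49 (adjusted p 0.0713).

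**Figure D3:**
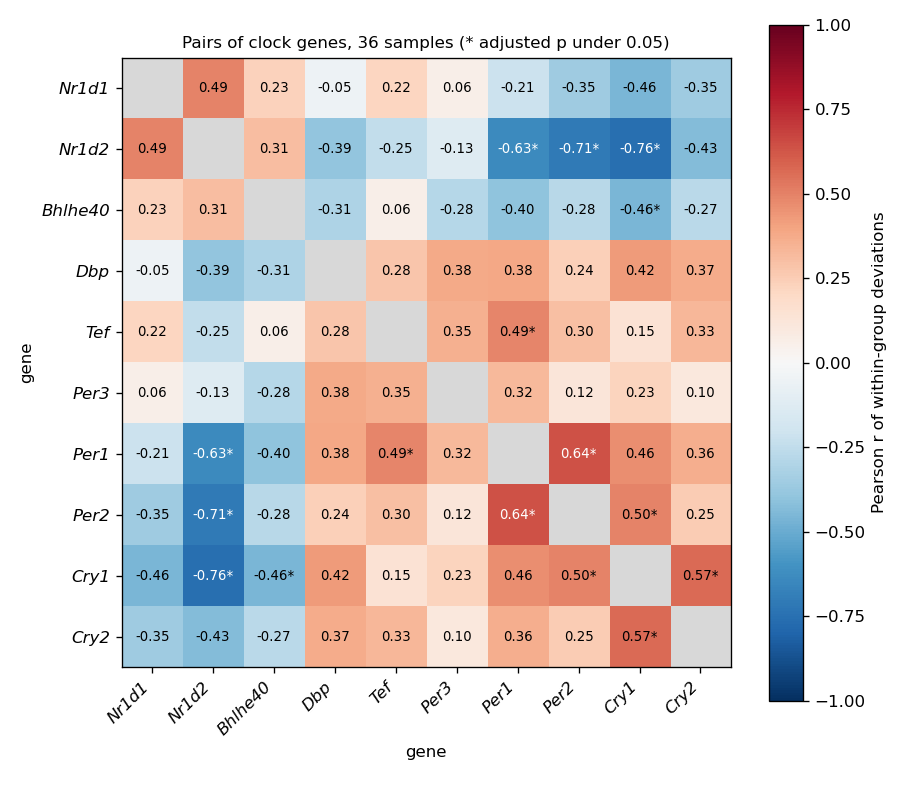
Pearson r of the 45 pairs of clock genes over 36 liver samples, after removing the mean of each dose group; red is positive, blue negative, and an asterisk marks an adjusted permutation p under 0.05. The row of Nr1d2 holds the strongest negative values, -0.76 with Cry1 and -0.71 with Per2, and Per1 with Per2 holds the highest positive one, 0.64.

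Taken group by group, with 6 samples each, the relation of Nr1d2 with Cry1 was uneven. The r was -0.87 at 0.05 mg/kg, -0.93 at 0.54 mg/kg and -0.87 at 5.41 mg/kg. It was -0.30 in vehicle, -0.06 at 54.1 mg/kg and -0.52 at 541 mg/kg. The sign was negative in all 6 groups for Cry1 and for Per2, whose r with Nr1d2 ran from -0.98 at 0.05 mg/kg to -0.02 at 541 mg/kg, and in 5 of 6 for Per1. The spread of Nr1d2 itself differed between these groups, with an SD of 0.57 at 5.41 mg/kg and 0.09 at 541 mg/kg. Whether the relation differed between groups was not tested.

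**Figure D4:**
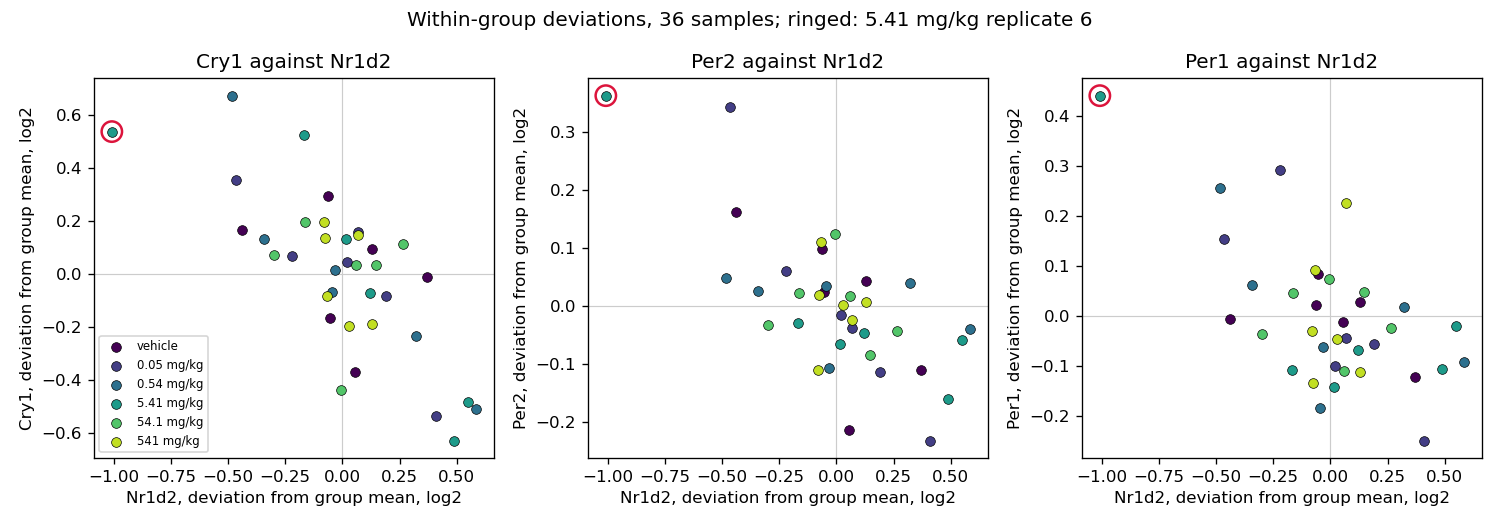
Deviation of Cry1, Per2 and Per1 from their dose group mean (y axes, log2) against that of Nr1d2 (x axes, log2) in 36 liver samples, coloured by group. The points slope downward, and 5.41 mg/kg replicate 6, ringed, lies at the upper left of each panel.

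Single livers stood at opposite ends of this pattern. In 5.41 mg/kg replicate 6, Per1, Per2, Per3, Cry1 and Dbp had the highest level of their group and Nr1d1 and Nr1d2 the lowest. In 0.54 mg/kg replicate 6, Per1, Per2, Per3, Cry1, Cry2, Dbp and Tef had the highest level and Nr1d2 and Bhlhe40 the lowest. In 0.05 mg/kg replicate 6 the order was the other way round: Per1, Per2, Cry1, Cry2 and Tef had the lowest level and Nr1d2 and Bhlhe40 the highest. Without 5.41 mg/kg replicate 6, 3 of the 45 pairs passed. They were Cry1 with Nr1d2 (r -0.74, adjusted permutation p 0.00405), Per2 with Nr1d2 (r -0.57, adjusted p 0.0109) and Cry1 with Cry2 (r 0.59, adjusted p 0.0109), while Per1 with Nr1d2 had r -0.44 (adjusted p 0.113). Without 54.1 mg/kg replicate 5, 13 passed.

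Measures of RNA and array quality moved with several of the same genes, to a degree that depended on the measure. The signal difference between the 3′ and 5′ control probe sets of beta-actin, which grows as RNA degrades, ranged from 0.96 to 1.29 over the arrays on the log2 scale. Within groups it correlated with Nr1d2 at r of -0.45, with Bhlhe40 at -0.46, with Per1 at 0.42, with Cry1 at 0.37 and with Per2 at 0.33. The same difference for Gapdh gave -0.37 with Nr1d2, -0.10 with Bhlhe40, 0.50 with Per1, 0.19 with Cry1 and 0.21 with Per2. With Dbp the r was 0.17 for beta-actin and 0.39 for Gapdh. The lower quartile of an array correlated with Per1 at 0.53 and with Per2 at 0.48, but with Nr1d2 at -0.27 and with Cry1 at -0.07. These values are descriptions over 36 samples, and their part in the relations between the clock genes was not tested. The choice of probe set mattered too: the second probe set of Per2 had an r of 0.86 with Cry1 and -0.83 with Nr1d2.

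Among 14207 other genes, those whose within-group deviations were most like Dbp were Frmd4b at r of 0.69, Fam184a at 0.65, Zbtb8os at 0.63, Fpgs at 0.62 and Taok3 at 0.61 over 36 samples. Those most opposite were Cep162 at -0.61, Vcan at -0.61, COX1 at -0.59, Cyria at -0.59 and Itgb1 at -0.57. Likeness to Nr1d2 and Bhlhe40, added after the data were seen, gave higher values. Nr1d2 was most like Zfand6 at 0.88, Rab3ip at 0.77 and Otud5 at 0.74, and most opposite to Smim24 at -0.72, Tma7 at -0.71 and Clip1 at -0.70. Bhlhe40 was most like Tiparp at 0.82, Cebpb at 0.80, Elf2 at 0.78 and Atf4 at 0.77, and most opposite to Rin2 at -0.80, Btg1 at -0.76 and Prox1 at -0.74. These are the extremes of many genes and carry no test.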

How the data were processed

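The deposited log2 expression values were used as they stand, 1 column per array. Per the submitters' processing notes the authors made them with RMA and the affy package, whose versions are not given in the sources used here; whether base 2 was used was not tested on raw intensities. RMA equalises array distributions, so a shift common to most genes would be removed. The 57 control probe sets were left out of 31099. Of 31042 probe sets tested, 20826 had 1 symbol in the array annotation, 436 several and 9780 none; 20758 matched RefSeq GRCr8 by Entrez ID and 0 symbols changed. A gene is represented by its probe set with the highest mean.

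Limma 3.58.1 in R 4.3.3 (lmFit, eBayes) fitted 6 group means, with two-sided p-values adjusted by Benjamini-Hochberg over the whole array, and an FDR of 5% as threshold. The R package that the design text names was not used. All probe sets of the 10 genes are named, and of each further list the members past the FDR or the 4 with the smallest p at 541 mg/kg; other genes named were chosen after their values were seen. The members and lists were chosen with earlier results of these data known. The fit was tested on simulated data. The number of arrays limits the precision. Alternatives are given in the closing section.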

Additional observations from a re-analysis of the deposited data

Results flagged for a closer look

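Gaps of single samples were examined for the 17 clock probe sets in 6 groups each, 102 groups of 6 samples, and 9 held a highest or lowest sample whose gap to its nearest neighbour took an unusually large share of the whole range. Chance gives about 1 in 20 such groups, and probe sets of a gene and genes of a sample are not independent.

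In 5.41 mg/kg, replicate 6 was set apart in 6 probe sets. It was the highest for Per1, at 6.05 with the next at 5.59, a gap of 0.792 of the range, and for the brightest probe set of Per2, at 7.40 with the next at 7.01 (0.750 of the range). It was the highest for the dimmer probe set of Per3 (0.670 of the range) and for the 2 dimmer probe sets of Tef, at 7.08 with the next at 6.51 (0.675 of the range) and at 4.66 with the next at 4.21 (0.691 of the range). It was the lowest for the second probe set of Nr1d2, at 5.05 with the next at 6.16 (0.640 of the range).

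In 54.1 mg/kg, replicate 5, whose array stood apart in distribution, was set apart in 3 probe sets. It was the lowest for Cry1, at 7.59 with the next at 8.06 (0.743 of the range), and for the second probe set of Per2, at 6.36 with the next at 6.61 (0.719 of the range). It was the highest for the second probe set of Cry2, at 6.06 with the next at 5.83 (0.713 of the range).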

How the results depend on the processing

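The count of clock genes past the FDR was 0 in 262 of 263 alternative limma fits over the 9 contrasts, and 1 for the 2 highest against the 3 lowest doses without 5.41 mg/kg replicate 6, so leaving out 1 sample gave 0 to 1 there. With the replicate number as a block it was 0 in all 9. After removing group means, same-numbered samples of different groups correlated at -0.26 to 0.23, with 24 of 90 pairs over 0.1. Their median r was 0.013, where differently numbered pairs of different groups had -0.004. In 5 of the 36 samples the best correlate in another group had the same number. These values show little pairing by number, and a weak shared batch was not tested. Of 751 alternative values of 30 member differences, 707 kept their sign, 44 did not and 0 passed the FDR. Signs turned for Dbp at 54.1 mg/kg with arrays centred on their median (-0.0058), Per3 there with the mean over probe sets (-0.0225) and Per1 in the 2 highest against the 3 lowest doses with array quality weights (0.0133). Leaving out 1 sample turned the sign of small differences: Per1 ran from -0.0549 to 0.0173, Per2 from -0.0324 to 0.0426, Tef from -0.0764 to 0.00764 and Per3 from -0.0822 to 0.0103 at 541 mg/kg. At 54.1 mg/kg Dbp ran from -0.0636 to 0.0580 and Nr1d1 from -0.0736 to 0.0215. In the 2 highest against the 3 lowest doses Per1 ran from -0.0244 to 0.0277, Tef from -0.0370 to 0.00500 and Dbp from -0.0266 to 0.0342. The 8 correlated pairs became 15 with group means not removed, 13 without 54.1 mg/kg replicate 5, 13 with the mean over probe sets and 3 without 5.41 mg/kg replicate 6; the cause was not tested. Calls over all probe sets, the background of the member counts, moved more. With array weights they were 64 in place of 23 at 54.1 mg/kg, 80 in place of 48 at 541 mg/kg, 150 in place of 89 for the 2 highest against the 3 lowest doses, 376 in place of 222 for the trend and 53 in place of 31 in the F-test. Leaving out 1 sample gave 5 (without vehicle replicate 1) to 36 (without vehicle replicate 2) at 54.1 mg/kg and 18 (without 541 mg/kg replicate 4) to 65 at 541 mg/kg. It gave 39 (without 54.1 mg/kg replicate 3) to 117 for the 2 highest against the 3 lowest doses, 85 (without 541 mg/kg replicate 1) to 272 for the trend and 17 to 41 in the F-test. Fits with the contrasted groups alone gave 43 at 54.1 mg/kg and 31 at 541 mg/kg, and with dim probe sets left out the trend gave 363.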
